A study of Mus musculus with 8 samples.

Results

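Transcripts of adherens junction proteins, of the epithelial adhesion molecule EpCAM and of vimentin were compared between 4T1-Sca1+ and 4T1-Sca1- cells. The 10 genes were chosen by name, as junction genes plus Vim, by a rule that holds no measured value: Cdh1, Cdh2, Cdh3, Cdh11, Ctnna1, Ctnnd1, Jup, Epcam, Vim and Nectin4. The choice was made with earlier results of these data known, so it was not blind to them. Matched by symbol to the Ensembl identifiers of the count table, 8 of the 10 were analysed among 16341 genes, and Cdh2 and Nectin4 were not analysed here. Of the 8, 7 had enough reads to be tested and Cdh11 did not.

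4T1 is a mouse mammary carcinoma line, and Sca1 is the membrane antigen that Ly6a encodes. Both groups were magnetic column fractions of 1 line, with no treatment and a CD45-negative gate in the labels: 4 libraries of cells that carry Sca1 and 4 of cells that do not. The source label names the parental line whereas the extraction text speaks of stained tumor, so whether the sorted cells had been in an animal is not settled by the labels. The study's main text gives the parental 4T1 line as the origin of the profiled fractions. The labels do not say that the replicates were separate sorts, so p-values measure the spread between these libraries, which may be technical. Ly6a was at 167 ± 20.2 normalized counts (mean ± SD, n = 4) in 4T1-Sca1+ cells and at 1.79 ± 1.73 in 4T1-Sca1- cells, the direction the labels give.

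In an epithelial adherens junction, a cadherin of one cell binds the same cadherin of its neighbour. The cadherin tail holds beta-catenin or plakoglobin, which hold alpha-catenin, which in turn reaches the actin cortex, while the delta-catenin binds nearer to the membrane and keeps the cadherin at the surface. Mammary luminal cells are known for E-cadherin and EpCAM, and vimentin is the intermediate filament of mesenchymal cells, which many carcinoma lines also make. Loss of E-cadherin with gain of vimentin and N-cadherin is the classical description of an epithelial-mesenchymal transition.

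Total counts per library ran from 13561804 to 16968215. The 12 markers of mammary epithelium, mostly keratin and claudin genes, summed to between 55139 and 61276 normalized counts in 4T1-Sca1+ libraries and to between 55359 and 60435 in 4T1-Sca1- libraries. Of these, 9 were tested: 3 were higher, 4 lower and 2 not called at an adjusted p under 0.05 (edgeR). Over all genes tested, 61.5% were called. Of the basal markers among the 12, Krt5 and Trp63 had at most 6 counts in any library, whereas Krt14 was at 549.8 ± 20.9 against 649.5 ± 38.1 normalized counts. Of the 13 leukocyte markers analysed, 8 had at most 10 counts in every library, among them Ptprc, which encodes CD45, with at most 4. The other 5 were tested, and Csf1r, Cd74, Cd68 and S100a8 were higher in 4T1-Sca1+ cells (log2 fold changes 0.65 to 2.38) while Cd14 was lower (-0.29). The 13 markers summed to between 1123 and 1186 normalized counts in 4T1-Sca1+ and between 1068 and 1171 in 4T1-Sca1- libraries, and the part of such cells in the results was not tested. The libraries also differed by the GC content of the transcripts. In genes over 56% GC the median deviation from the gene mean was 0.24 (log2 CPM) in 4T1-Sca1+ replicate 3, between 0.04 and 0.09 in the other 4T1-Sca1+ libraries, and between -0.14 and -0.01 in the 4T1-Sca1- libraries. The chi-square per degree of freedom between 4T1-Sca1+ replicate 3 and the other libraries of its group ran from 7.07 to 10.2, against 2.20 to 4.02 among those others, so this library stands apart. The GC trend went with the groups, and a library effect on GC-rich transcripts and a group difference in them cannot be told apart. Values with offsets that remove the trend are therefore given where they alter a result. With these GC-corrected offsets, 2 of the 9 epithelial markers tested were higher and 6 lower. Over all 11616 genes tested with them, 3019 were higher and 4773 lower.

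**Figure D1:**
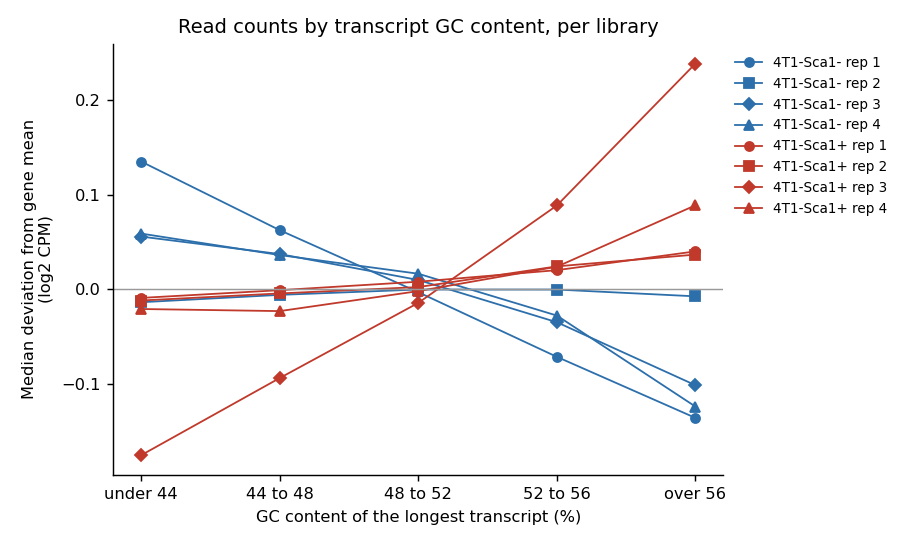
Median deviation of genes from their mean over the 8 libraries (y, log2 CPM) in 5 classes of transcript GC content (x, %), 1 line per library, red for 4T1-Sca1+ and blue for 4T1-Sca1-. In genes over 56% GC, 4T1-Sca1+ replicate 3 stood at 0.24 and the 4T1-Sca1- libraries between -0.14 and -0.01.

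The 7 genes tested did not all move in the same direction. Cdh1 was 1.61-fold lower and Ctnna1 1.14-fold lower in 4T1-Sca1+ cells, Vim was 1.35-fold and Jup 1.30-fold higher, and Epcam, Ctnnd1 and Cdh3 were not called. Thus 2 of the 7 genes tested were higher and 2 lower at an adjusted p under 0.05 (edgeR quasi-likelihood test, two-sided, Benjamini-Hochberg over all 11717 genes tested). Over all genes tested, 61.5% were called, 31.3% higher and 30.2% lower, so the share called among these 7 was not above that of genes at large. With GC-corrected offsets the 7 genes became 1 higher (Vim) and 4 lower (Cdh1, Cdh3, Ctnna1 and Epcam), and Jup was no longer called. Over all genes the split of calls moved with these offsets from 50.9% to 38.7% higher. In such sorted bulk samples, a change in the share of cells that make a transcript and a change in its amount per cell cannot be told apart.

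**Figure D2:**
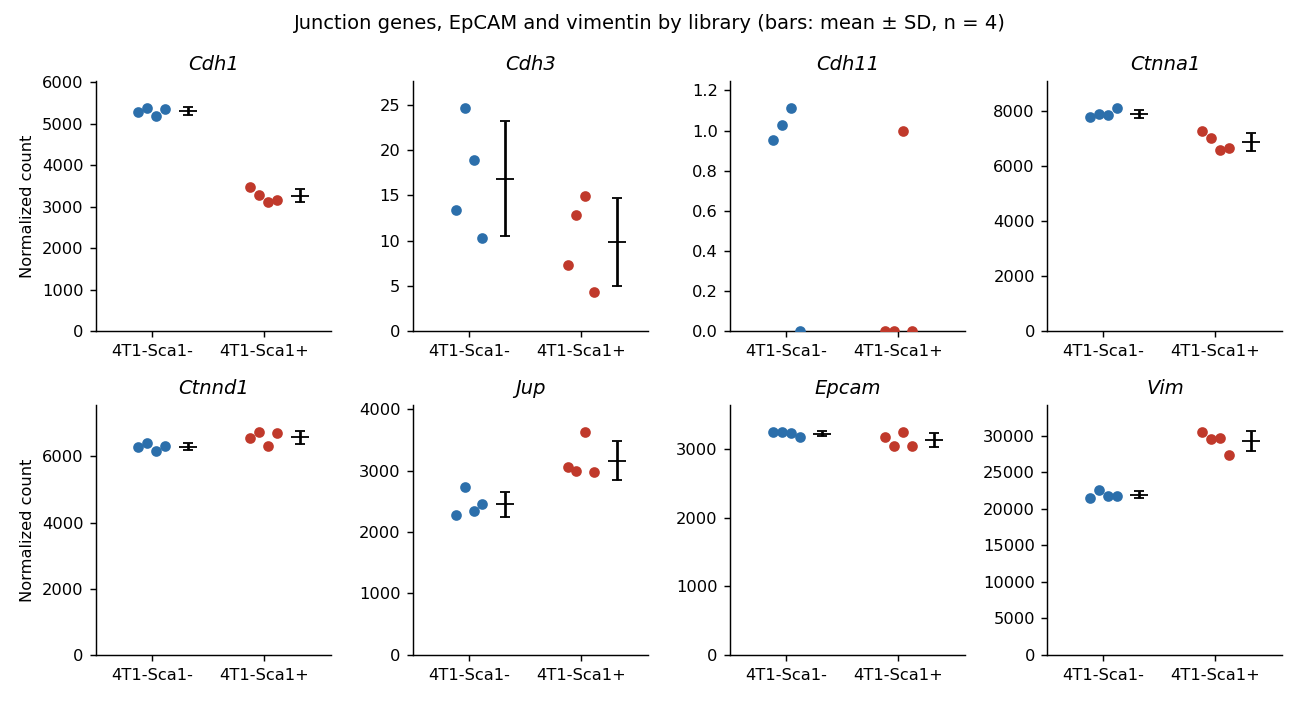
Normalized counts (y) of the 8 analysed genes in each library, 4T1-Sca1- in blue and 4T1-Sca1+ in red, with mean ± SD (n = 4) beside the points of tested genes. The groups are separate for Cdh1, Ctnna1, Jup and Vim and overlap for Cdh3, Cdh11, Ctnnd1 and Epcam.

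Among the cadherins, Cdh1 encodes E-cadherin, the cadherin of epithelial junctions (ENSMUSG00000000303, chromosome 8, 106603351 to 106670246, plus strand, GRCm38, the build of all gene positions given here). Normalized counts of Cdh1 in 4T1-Sca1+ replicates 1 to 4 were 3469, 3289, 3124 and 3173. The 4T1-Sca1- replicates had 5273, 5383, 5183 and 5366. All 4T1-Sca1+ libraries lay below all 4T1-Sca1- libraries, a separation seen in 54.7% of genes tested, 27.9% with the 4T1-Sca1+ libraries lower and 26.8% with them higher. The log2 fold change of Cdh1 was -0.69 ± 0.04 (SE), with an edgeR adjusted p of 6.19e-10, and it ran from -0.77 to -0.64 over 20 alternatives. Per transcript length, Cdh1 was at 49.4 ± 2.39 RPKM in 4T1-Sca1+ and 77.2 ± 0.93 RPKM in 4T1-Sca1- libraries.

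Cdh3 encodes P-cadherin, known from basal cells of stratified and mammary epithelium, and its gene ends 46053 bases before Cdh1 on the same strand (chromosome 8, 106510891 to 106557297). The 4T1-Sca1+ libraries held 8, 13, 15 and 5 raw counts and the 4T1-Sca1- libraries 14, 24, 17 and 9. Normalized counts were 9.87 ± 4.88 against 16.8 ± 6.33 and the groups overlapped. The log2 fold change of -0.78 ± 0.36 had an adjusted p of 0.0658, with a 95% interval of -1.53 to -0.03. At these counts the call depended on the setting: it was made in 6 of 19 alternatives, among them the fit without 4T1-Sca1+ replicate 3 (-1.05, adjusted p 0.0150), and the estimates ran from -1.05 to -0.52.

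Cdh11, a type II classical cadherin of mesenchymal cells (chromosome 8, 102632095 to 102785642, minus strand), had a total of 1 count in the 4T1-Sca1+ libraries and 3 counts in the 4T1-Sca1- libraries. No library held more than 1 count, so no fold could be given, and any level at this depth rests on a few reads.

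Beyond these genes, 8 of 18 other cadherins on the list were analysed and 2 reached the depth for a test. Cdh17, which encodes a cadherin of the intestinal lineage, was at 219 ± 16.1 against 128.5 ± 12.4 normalized counts, a log2 fold change of 0.78 ± 0.09 (adjusted p 1.41e-06). It was higher in all 4T1-Sca1+ libraries. Cdh24 was at 820 ± 106 against 676 ± 52.9 with overlapping groups, and its log2 fold change of 0.29 ± 0.08 (adjusted p 0.00394) turned to -0.10 with GC-corrected offsets. As a share of the summed RPKM of the 11 cadherins analysed, Cdh1 took 70.9% ± 2.56 in 4T1-Sca1+ and 83.6% ± 0.87 in 4T1-Sca1- libraries. Cdh17 took 6.09% ± 0.41 and 2.59% ± 0.20, and Cdh24 took 22.6% ± 2.81 and 13.5% ± 0.77. These shares describe the analysed cadherins alone, without Cdh2 and the 10 others of the list that were not analysed. A smaller share of Cdh1 went with its lower level, and the remainder was nearly all Cdh24 and Cdh17.

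**Figure D3:**
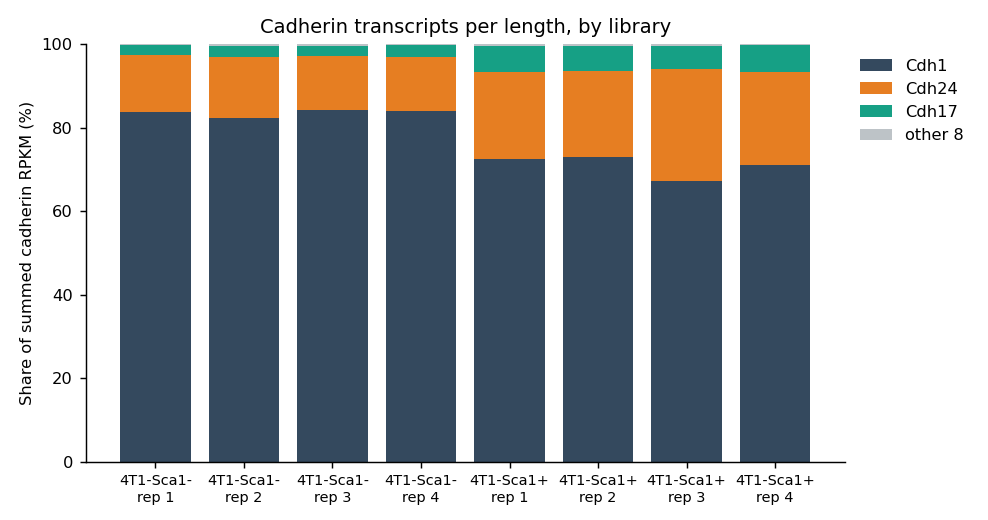
Share of the summed RPKM of the 11 analysed cadherins (y, %) held by Cdh1, Cdh24, Cdh17 and the other 8 in each library (x). Cdh1 averaged 83.6% in 4T1-Sca1- and 70.9% in 4T1-Sca1+ libraries, and the latter held larger shares of Cdh24 and Cdh17. Shares are parts of a common total, so a lower Cdh1 level by itself raises the others, and they were not GC-corrected.

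Among the catenins, Ctnna1 encodes alpha-catenin of epithelial cells, the link to actin (ENSMUSG00000037815, chromosome 18, 35118859 to 35254779, plus strand). Its normalized counts were 7251, 7027, 6570 and 6647 in 4T1-Sca1+ and 7768, 7879, 7831 and 8105 in 4T1-Sca1- replicates 1 to 4. The groups did not overlap, and the difference was small, a log2 fold change of -0.19 ± 0.04 with an edgeR adjusted p of 0.00128. It stayed between -0.24 and -0.14 over 20 alternatives. Lrrtm2 lies inside Ctnna1 and the use of strand in counting is not given in the sources used here, but it had at most 4 counts in any library.

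Ctnnd1 encodes the delta-catenin that stabilises cadherins at the membrane (ENSMUSG00000034101, chromosome 2, 84600071 to 84650765, minus strand). Its normalized counts were 6542, 6752, 6308 and 6707 in 4T1-Sca1+ and 6285, 6420, 6156 and 6319 in 4T1-Sca1- libraries, with overlap between the groups. The log2 fold change of 0.08 ± 0.04 had an adjusted p of 0.117 and a 95% interval of -0.01 to 0.16, so a rise of more than 0.16 was outside the interval. Without 4T1-Sca1+ replicate 3 it was 0.09 with an adjusted p of 0.0426, a call at the margin of the threshold.

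Jup encodes plakoglobin, the catenin shared by adherens junctions and desmosomes (ENSMUSG00000001552, chromosome 11, 100368958 to 100397763, minus strand). The 4T1-Sca1+ libraries had 3055, 2992, 3637 and 2972 normalized counts and the 4T1-Sca1- libraries 2282, 2734, 2335 and 2456. All 4T1-Sca1+ libraries lay above all 4T1-Sca1- libraries, and 4T1-Sca1+ replicate 3, the library with the most reads from GC-rich genes, was the highest. The rise of Jup was 0.38 ± 0.07 on the log2 scale (edgeR adjusted p 7.89e-05), and 0.31 (adjusted p 4.81e-06) without that library. The Jup transcript is GC-rich, at 58.8%, and with GC-corrected offsets only 0.07 was left (adjusted p 0.136), so the call ended.

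Ctnnb1, which encodes beta-catenin, had a log2 fold change of 0.16 ± 0.04 (adjusted p 0.00241), or 0.09 with GC-corrected offsets. Among 21 other catenins and partners of the cadherin tail, 19 were tested: 8 were higher, 6 lower and 5 not called, with a median of 0.02 beside 0.01 over all genes. With GC-corrected offsets 3 were higher and 7 lower. These counts, like those of the lists that follow, stand beside 61.5% of all genes called, 31.3% higher and 30.2% lower. Those with GC-corrected offsets stand beside 3019 genes higher and 4773 lower among 11616 tested. The genes with the largest rises were Camsap3, which anchors microtubule minus ends (1.20 ± 0.09, adjusted p 5.42e-09), Arvcf, a relative of Ctnnd1 (0.48 ± 0.07, or 0.17 with GC-corrected offsets), and Ctnnbip1, an inhibitor of beta-catenin (0.27 ± 0.06, or 0.07 and not called with those offsets). The largest falls were in Ajuba, a LIM protein that binds alpha-catenin (-0.68 ± 0.05, adjusted p 9.19e-10), Vezt, which encodes vezatin of the cadherin complex (-0.52 ± 0.06), and Ptprk, a receptor phosphatase of cell contacts (-0.50 ± 0.04). Vcl, the vinculin gene, was also lower at -0.26 ± 0.05 (adjusted p 7.54e-05), named here after its value was seen. Camsap3, Arvcf, Ctnnbip1 and Ctnnb1 each overlap another analysed gene, as do Ncstn and Plec, so reads could be shared there.

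Of 11 other nectins, their partners and relatives, 7 were analysed and tested: 2 were higher, 2 lower and 3 not called, or 1 higher and 3 lower with GC-corrected offsets. Pvr, which encodes the nectin-like poliovirus receptor, was lower at -0.32 ± 0.04 (adjusted p 5.28e-06), and so was the polarity gene Pard3 at -0.22 ± 0.05 (adjusted p 0.000356), or -0.36 with GC-corrected offsets. Lmo7 was called higher at 0.15 ± 0.06 (adjusted p 0.0295), and that call was lost in 12 of 20 alternatives.

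Plakoglobin also binds desmosomal cadherins, and the desmosome genes were the list with the lowest median, -0.41. Of 9 tested, 5 were lower, 3 higher and 1 not called, or 6 lower and 2 higher with GC-corrected offsets. Dsp, which encodes desmoplakin, the tie to keratin, was at 2280 ± 104 against 3753 ± 111 normalized counts (log2 fold change -0.71 ± 0.05, adjusted p 6.51e-10). The plakophilin Pkp2 (-0.70 ± 0.06) and the desmosomal cadherin Dsg2 (-0.67 ± 0.06) were lower by similar amounts, as were Pkp3 (-0.47 ± 0.06) and Perp (-0.41 ± 0.04). The desmosomal cadherin Dsc2 was higher (0.51 ± 0.12, adjusted p 0.00146). The plakin genes Ppl (0.34 ± 0.05) and Evpl (0.31 ± 0.10) were called higher too, but were at 0.16 and -0.08 with GC-corrected offsets. Thus Dsp, Pkp2 and Dsg2 moved in the direction of Cdh1 while Jup, their binding partner, did not.

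EpCAM is a single-span adhesion protein of epithelia that associates with claudins and tetraspanins and is cut by surface proteases. Epcam (ENSMUSG00000045394, chromosome 17, 87635979 to 87651129, plus strand) had 3176, 3048, 3248 and 3039 normalized counts in 4T1-Sca1+ and 3252, 3240, 3224 and 3172 in 4T1-Sca1- libraries. The groups overlapped, with a log2 fold change of -0.03 ± 0.04, an adjusted p of 0.552 and a 95% interval of -0.12 to 0.06. A change as large as that of Cdh1 was thus outside the interval of Epcam. With GC-corrected offsets the value was -0.16 with an adjusted p of 0.000220, and with library totals alone it was 0.01, so the sign and the call of this small difference depended on the scaling.

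Of 15 EpCAM partners and proteases, 13 were tested: 3 were higher, 3 lower and 7 not called, or 4 higher and 6 lower with GC-corrected offsets. The largest differences were in a protease and its inhibitor. St14, which encodes matriptase, a protease that cuts EpCAM, was at 3455 ± 181 against 5105 ± 237 normalized counts (log2 fold change -0.55 ± 0.05, adjusted p 3.06e-08). Spint1, which encodes a Kunitz inhibitor of matriptase, was at 2806 ± 78.8 against 1626 ± 41.5 (0.80 ± 0.04, adjusted p 6.41e-11). The presenilin gene Psen2 was lower (-0.23 ± 0.06, or -0.43 with GC-corrected offsets). Ncstn, of the gamma-secretase, was higher at 0.24 ± 0.05, or 0.13 with those offsets, and the tetraspanin gene Cd9 at 0.13 ± 0.04 (adjusted p 0.0116), the latter not called without 4T1-Sca1+ replicate 2 (0.11, adjusted p 0.0516). The claudin partner Cldn7 was not called (-0.11 ± 0.06).

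Promoter sequence was given for 5 of the 10 genes (RefSeq, GRCm38.p6), as the 250 bases before the transcription start. No window was given for Cdh1, Cdh2, Cdh3, Cdh11 or Ctnna1, so no cadherin promoter was searched. Those of Epcam and Jup are shown because both were tested and their windows lie outside annotated exons, and because they differ in E-boxes of the kind bound by SNAI and ZEB repressors. Capitals mark CACCTG and its reverse complement CAGGTG, which covers both strands.

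Epcam, chr17:87635729-87635978, plus strand: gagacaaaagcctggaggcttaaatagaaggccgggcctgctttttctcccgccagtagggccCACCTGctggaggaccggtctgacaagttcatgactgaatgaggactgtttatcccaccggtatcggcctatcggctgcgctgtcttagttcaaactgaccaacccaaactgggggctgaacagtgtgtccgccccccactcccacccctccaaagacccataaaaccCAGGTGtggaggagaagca

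Jup, chr11:100397791-100398040, minus strand: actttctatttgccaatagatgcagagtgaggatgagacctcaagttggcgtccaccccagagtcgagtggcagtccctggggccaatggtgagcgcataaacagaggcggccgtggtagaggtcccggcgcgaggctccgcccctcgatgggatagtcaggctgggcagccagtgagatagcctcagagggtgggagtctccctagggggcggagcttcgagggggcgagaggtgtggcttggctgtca

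The Epcam window held 2 such hexamers, starting 187 and 19 bases before the start, and those of Jup, Vim and Ctnnd1 held 0. Of 32851 promoter windows of the same length, 17.2% held at least 1, and 66.2% held the wider motif CANNTG, of which these hexamers are a subset. The windows of Vim and Ctnnd1 overlap annotated exons. A match describes letters, not a bound site, and its absence says nothing outside this window.

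Vim encodes vimentin, and it is the gene of this set with the most reads (ENSMUSG00000026728, chromosome 2, 13573927 to 13582826, plus strand). Its normalized counts were 30553, 29591, 29601 and 27316 in 4T1-Sca1+ and 21415, 22547, 21779 and 21791 in 4T1-Sca1- libraries. Every 4T1-Sca1+ library lay above every 4T1-Sca1- library. Vim rose by 0.43 ± 0.04 on the log2 scale (edgeR adjusted p 1.19e-07), by 0.43 with GC-corrected offsets, and by 0.41 to 0.48 over 20 alternatives. Fibroblasts make much vimentin, and the 9 fibroblast markers analysed summed to between 1055 and 1099 normalized counts in 4T1-Sca1+ libraries and between 499 and 564 in 4T1-Sca1- libraries. That sum was mostly Fbln1 (417.5 ± 10.9 against 97.2 ± 3.87) and Pdgfra (560.2 ± 26.1 against 364 ± 25.6), while Col1a2, Fap and Pdpn had at most 8 counts in any library. Of the 9 fibroblast markers, 4 were tested: 3 were higher, 0 lower and 1 not called, or 2 higher and 0 lower with GC-corrected offsets. The part of such cells in the Vim difference was not tested.

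Of 17 other intermediate filament genes and vimentin partners, 13 were tested: 5 were higher, 4 lower and 4 not called, or 3 higher and 6 lower with GC-corrected offsets. Rock1 (-0.47 ± 0.07) and Pak1 (-0.37 ± 0.06), kinases that phosphorylate vimentin, and Nes, which encodes the filament protein nestin (-0.29 ± 0.04, or -0.51 with GC-corrected offsets), were lower. Plec, which encodes the linker plectin, was higher at 0.65 ± 0.06, or 0.26 with GC-corrected offsets. The luminal keratin genes Krt8 (0.31 ± 0.04) and Krt18 (0.38 ± 0.04) were called higher with Vim, but with those offsets stood at 0.05, which was not called, and at 0.14. Krt19 was not called (0.01 ± 0.05) and Krt14 was lower (-0.22 ± 0.06, adjusted p 0.00346).

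Of 15 other mesenchymal markers, 14 were analysed and 10 tested: 5 were higher, 3 lower and 2 not called, or 4 higher and 4 lower with GC-corrected offsets. S100a4, a calcium-binding protein of motile cells, was higher at 0.62 ± 0.05 (adjusted p 7.52e-09). Col5a1 (0.78 ± 0.07, or 0.48 with GC-corrected offsets) and the integrin gene Itga5 (0.37 ± 0.05, or 0.11) were higher too. Tnc, which encodes tenascin-C, was lower at -1.29 ± 0.08 (adjusted p 1.81e-10), and so was the membrane protease gene Mmp14 (-0.37 ± 0.05). Fn1, which encodes fibronectin, was at 48706 ± 1650.3 against 48128 ± 2331 normalized counts and not called (0.03 ± 0.04). Mesenchymal markers thus moved in both directions beside Vim.

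Of the known regulators of Cdh1 transcription and of epithelial splicing, 20 were tested: 8 were higher, 10 lower and 2 not called, with a median of -0.23, or 6 higher and 11 lower with GC-corrected offsets. Zeb1, a repressor of Cdh1, was lower at 19.9 ± 3.65 against 49.0 ± 3.65 normalized counts (log2 fold change -1.28 ± 0.18, adjusted p 8.42e-06). Its relative Zeb2 was higher at 520.5 ± 28 against 410.4 ± 29.3 (0.36 ± 0.07, adjusted p 0.000183). Both overlap another analysed gene, so some of their reads could be shared. Of the other repressors, Twist1 was higher (0.65 ± 0.07, or 0.32 with GC-corrected offsets), and Snai1 was called at 0.29 ± 0.08 (adjusted p 0.00397) but was -0.06 with those offsets. Snai2 had at most 10 counts in any library and was not tested. The forkhead genes Foxc1 and Foxc2 had 0.61 ± 0.09 and 0.50 ± 0.10, or 0.38 and 0.09 with those offsets, the latter not called.

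In the same list, Esrp1, which encodes an epithelial splicing factor, was at 1355 ± 73.3 against 2019 ± 48.8 normalized counts (log2 fold change -0.56 ± 0.05, adjusted p 2.78e-08). Ovol1 (-0.58 ± 0.10), Foxa1 (-0.47 ± 0.12) and Grhl2, an activator of Cdh1 (-0.20 ± 0.05, adjusted p 0.00192), were lower too, each also with GC-corrected offsets. Grhl3 went the other way, at 18.1 ± 4.21 against 4.60 ± 2.08 normalized counts (2.00 ± 0.35, adjusted p 9.78e-05), and is named after its value was seen.

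**Figure D4:**
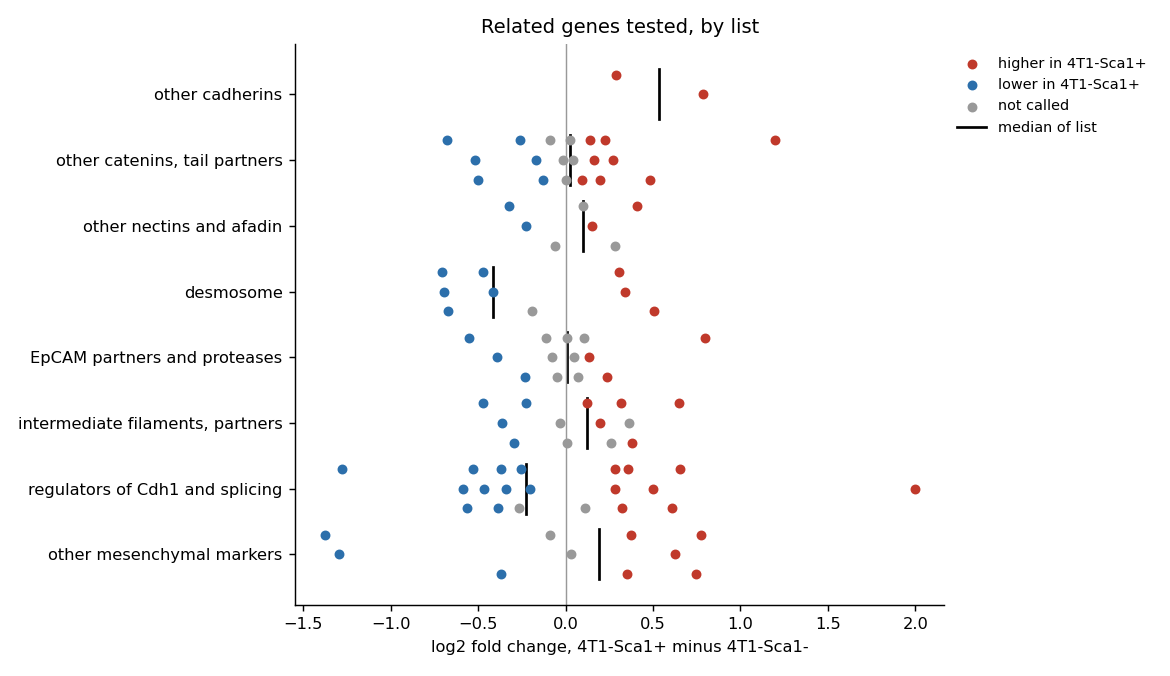
Log2 fold change (x, 4T1-Sca1+ minus 4T1-Sca1-) of each tested gene of 8 lists of related genes (y), red where called higher, blue where called lower and grey where not called, with the list median as a bar. Desmosome genes had a median of -0.41 and every list of more than 2 tested genes held calls in both directions.

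Per transcript length, the order of the 8 genes by mean RPKM over the 8 libraries was Vim (577), Ctnna1 (130), Epcam (102), Ctnnd1 (66.6), Cdh1 (63.3), Jup (57.8), Cdh3 (0.199) and Cdh11 (0.00589). The ranges of Ctnnd1, Cdh1 and Jup over the libraries overlap, so their order is not set, and with the union of exons as the length Epcam (95.1) stood above Ctnna1 (75.5) and Cdh1 (61.3) above Ctnnd1 (57.9). Relative to Cdh1 in the same library, Vim was 13.6 ± 0.56 times as high in 4T1-Sca1+ and 6.25 ± 0.12 times in 4T1-Sca1- libraries by RPKM. Ctnna1 stood at 2.50 ± 0.02 and 1.77 ± 0.03 times Cdh1, Ctnnd1 at 1.41 ± 0.07 and 0.827 ± 0.005, and Epcam at 2.08 ± 0.12 and 1.32 ± 0.03. In each pair the ranges of the groups did not overlap. All of these ratios have Cdh1 as the denominator, so its lower level in 4T1-Sca1+ libraries raises each of them. Of the numerators, Vim was higher, Ctnna1 was lower, and Ctnnd1 and Epcam were not called.

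**Figure D5:**
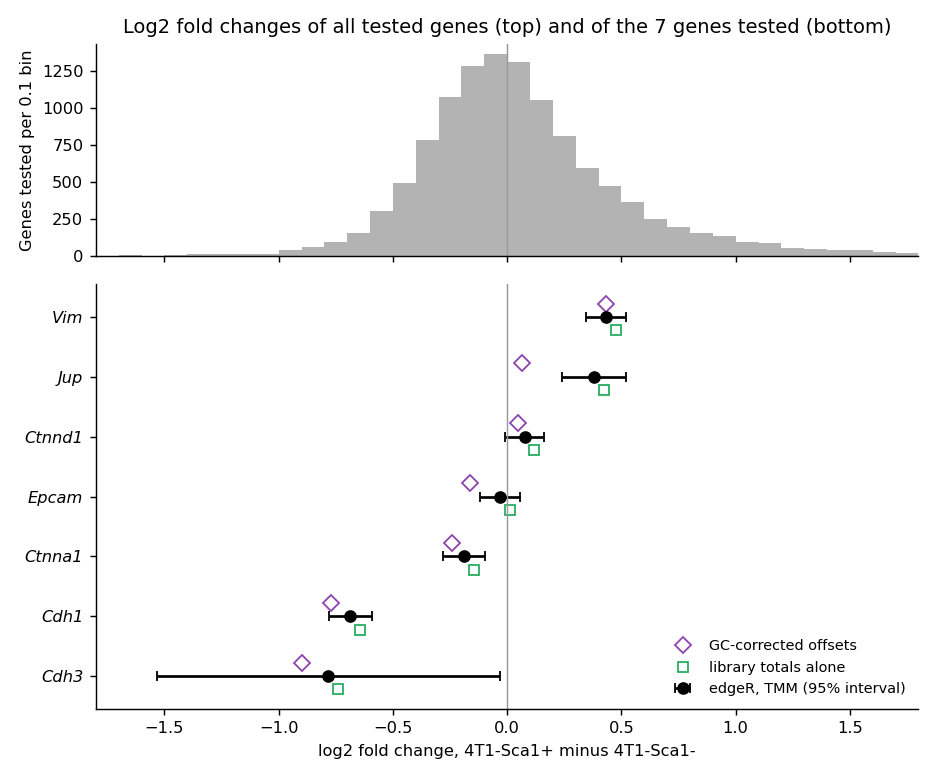
Top, number of tested genes (y) per 0.1 of log2 fold change (x), shown from -1.8 to 1.8. Bottom, log2 fold change of the 7 tested genes with the 95% interval (black), with GC-corrected offsets (purple diamonds) and with library totals alone (green squares). Cdh1 and Vim lie apart from 0 at each setting, whereas Jup falls from 0.38 to 0.07 and Epcam from -0.03 to -0.16 with GC-corrected offsets.

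The genes whose log2 CPM followed Cdh1 most closely over the 8 libraries were Gart (Pearson's r 0.9995), Lrrc59, Iars, Loxl4 and Akap12 (each r 0.998). All 5 were lower in 4T1-Sca1+ libraries, with log2 fold changes of -1.10 (Loxl4) to -0.47 (Lrrc59). Because 1077 genes reached r of at least 0.95 and the 8 points share the difference between the groups, this is a description of a pattern common in these libraries.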

How the data were processed

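The members and gene lists were chosen with earlier results of these data known. Per the labels, total RNA of 8 libraries (TruSeq v2, which does not mark strand) was sequenced on a NextSeq instrument. The submitters' processing notes name cutadapt 1.16, STAR 2.5.3a and GRCm38/mm10. The counting tool, annotation and use of strand are not given in the sources used here. The authors deposited raw counts per Ensembl gene (16341 genes), and a deposited signal table of the same counts divided by 1 size factor per library, the unit here called normalized counts. Neither table holds columns of other samples.

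Counts were tested with edgeR 4.0.16 (R 4.3.3): filterByExpr (11717 genes tested, 4624 not), TMM scaling and a two-sided quasi-likelihood test of Sca1+ against Sca1- without covariates, Benjamini-Hochberg adjusted over all tested genes and called at 0.05. SE was the absolute log2 fold change divided by the square root of F. RPKM used the longest GENCODE M21 transcript and the total counts of each library, without TMM scaling. All 10 members were named, and from each list the 3 called genes with the largest change in each direction and a mean of at least 50 normalized counts, plus Ctnnb1, Snai1, Zeb1, Zeb2, Grhl2, Esrp1 and Krt8. Some genes that this rule names are not reported here. Lists were described without set tests. On simulated counts for this comparison (11717 genes, no GC trend), 97% of log2 changes of 0.5 were recovered. The changed genes were drawn only from those with higher mean counts, so this does not cover low-count genes such as Cdh3. The depth given limits counts by counting error only, since PCR copies carry no molecular identifier.

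Alternatives were DESeq2 size factors, library totals, upper-quartile scaling, GC-corrected offsets, DESeq2 1.42.0 as the test, no filter, a minimum of 10 counts per library, limma 3.58.1 (voom, or log2(signal + 1)), a replicate block, a threshold of 0.01, a limit of 1 on the log2 scale, omission of each library, and union exon lengths.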

Additional observations from a re-analysis of the deposited data

Results flagged for a closer look

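In groups of 4 libraries, a value was singled out when its gap to the nearest other library exceeded Dixon's 95% critical share of the group's range. Of 16 groups tested over the 8 analysed genes, 3 were singled out, where chance gives about 0.8. That figure is for continuous values, which the few reads of Cdh11 are not.

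Jup in 4T1-Sca1+ replicate 3 stood at 3637 normalized counts, with the other 3 libraries of the group between 2972 and 3055. In that library genes over 56% GC deviated by a median of 0.24 (log2 CPM), and the part of this in the Jup value was not tested.

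Cdh11 in 4T1-Sca1- replicate 4 stood at 0 normalized counts, with the others between 0.955 and 1.11. Cdh11 in 4T1-Sca1+ replicate 3 stood at 0.997, with the others at 0. Each is the difference between 0 and 1 read.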

How the results depend on the processing

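Cdh1, Ctnna1 and Vim kept their direction and their call in every alternative but the limit of 2-fold, under which 612 genes were higher and 103 lower in 4T1-Sca1+ cells, with 0 members in either direction. With GC-corrected offsets 1 member was higher and 4 lower, the call of Jup was lost, and 4 values changed sign among the members and named genes under a change of scaling. These were Cdh24 (-0.10), Evpl (-0.077) and Snai1 (-0.059) with GC-corrected offsets, and Epcam (0.013) with library totals alone. With library totals 4118 genes were higher and 2984 lower (58% of calls higher), and Ctnnd1 was called (0.12, adjusted p 0.0163), as with upper-quartile scaling (0.11, adjusted p 0.0305). No scaling moved the median of all genes by over 0.1. Leaving out 1 library at a time gave -0.72 to -0.67 for Cdh1, 0.31 to 0.43 for Jup, 0.41 to 0.46 for Vim, -0.22 to -0.17 for Ctnna1, 0.06 to 0.09 for Ctnnd1, -0.05 to -0.02 for Epcam and -1.05 to -0.52 for Cdh3. Cdh3 was called without 4T1-Sca1+ replicate 2 (-0.94) or 3 (-1.05), without 4T1-Sca1- replicate 4 (-0.95), with no filter (-0.80), with GC-corrected offsets (-0.90) and with the replicate block (-0.76). At least 10 counts in every library left Cdh3 untested. With the replicate block 3605 genes were higher and 3452 lower. Same-numbered libraries did not deviate together (correlations 0.10, -0.15, -0.03 and -0.001). In libraries that also deviate by GC content, such correlations cannot tell whether same-numbered libraries came from the same sort. Depth limits Cdh3 and Cdh11 alone among the analysed members.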
